A study of Bos taurus with 9 samples.

Results

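H3K9me3 peaks in rumen epithelial tissue of Holstein calves were compared before and after weaning. H3K9me3 is trimethylation of histone H3 at lysine 9. All peaks of both H3K9me3 lists were taken, 2410 before weaning and 4170 after weaning, which makes 6580 of the 130580 peaks in the 8 peak lists of the series. The series profiled 4 targets by chromatin immunoprecipitation and sequencing (ChIP-seq): H3K9me3, the acetylation marks H3K9ac and H3K27ac of active promoters and enhancers, and RNA polymerase II (RNA pol II). The rumen, the fermenting forestomach of cattle, matures as a calf passes from milk to solid feed at weaning. By the labels, both H3K9me3 libraries came from rumen epithelial tissue of the same breed and were made with 1 lot of 1 antibody. The labels used here give neither the age or number of the calves nor whether tissue was pooled. Each time point had 1 library and so no replicate. The library before weaning was sequenced on lane 2 and the library after weaning on lane 1, so the time point and the lane cannot be told apart, and no difference below is a test of weaning. The study's text and the labels give opposite time points to the RNA pol II lists. The time points here follow the labels, and whether the labels of the H3K9me3 libraries are affected was not tested.

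H3K9me3 is laid down by methyltransferases such as SETDB1 and the SUV39H enzymes and is bound by HP1 proteins, which compact the chromatin. It marks constitutive heterochromatin at satellite repeats near centromeres and telomeres, keeps endogenous retroviruses silent and covers clusters of zinc finger genes. Cattle autosomes have the centromere at one end, by convention the low-coordinate end, whereas X has 2 arms. The lists were made from reads with a unique alignment, so long repeats are under-represented in them, and they hold positions only, with no height. Gene positions on the assembly of the lists were not used here, and regions are therefore named by position on UMD3.1.1.

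H3K9me3 peaks were more numerous after weaning, with a lower median width over the whole list. Peaks matched one to one, described below, had medians of 345 bp before and 358 bp after weaning. The ratio of peak numbers, after to before, was 1.73 (95% interval 1.65 to 1.82, counting error only). A 2 Mb stretch of chromosome 17, from 50 to 52 Mb, held 395 peaks before weaning and 435 afterwards, with a ratio of 1.10 (0.959 to 1.27), and is called the chromosome 17 cluster below. Outside the cluster there were 2015 and 3735 peaks, a ratio of 1.85 (1.76 to 1.96). The dense stretch thus stayed nearly level while the rest of the genome carried the higher number. Total covered length was 892.2 kb before and 1427.9 kb after weaning, of which the cluster gave 196.7 kb and 221.3 kb.

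The ratio differed by width and was highest for the narrowest peaks and for the few widest ones. Peaks of exactly 200 bp, the lowest width in the lists, numbered 324 before and 969 after weaning, a ratio of 2.99 (2.64 to 3.40). Peaks over 200 and up to 300 bp numbered 1057 and 1741 (ratio 1.65), and peaks over 300 and up to 500 bp numbered 608 and 941 (ratio 1.55). Peaks over 500 and up to 1000 bp numbered 346 and 395, a ratio of 1.14 (0.986 to 1.32), an interval that includes 1. Above 1000 bp there were 75 peaks before and 124 after weaning (ratio 1.65, 1.23 to 2.23), and above 2000 bp there were 5 and 21 (ratio 4.20, 1.54 to 14.3, over few peaks). The median width was 275.5 bp before (95% interval 269 to 281) and 247 bp after weaning (244 to 251), and 261 and 240 bp without the cluster. With the same width limit on both lists the order was kept, at 299 and 285 bp for peaks wider than 200 bp and 382.5 and 359 bp above the median width of the pooled lists. Within the cluster peaks were wider at both time points, with medians of 386 bp (358 to 422) and 370 bp (346 to 400).

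Peaks were then joined wherever at most 10 kb lay between neighbours. A joined stretch of 2 or more peaks is called a domain, a peak with no neighbour within 10 kb is called a single peak, and both together are called units. There were 250 domains before and 467 after weaning, and 950 and 1838 single peaks. The share of peaks inside domains was 60.6% before (95% Wilson interval 58.6 to 62.5) and 55.9% after weaning (54.4 to 57.4). Outside the cluster it was 53.0% (50.8 to 55.2) and 50.9% (49.3 to 52.5), where the intervals overlap. Among peaks wider than 200 bp it was 65.3% and 62.1%, in the same order. With the list after weaning shortened to its 2410 widest peaks it was 60.6% and 63.1%, in the reverse order.

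Domains after weaning were longer and less densely filled. The median span was 5102.5 bp before and 6466 bp after weaning, and the median share of a domain covered by peaks was 25.7% and 18.8%. The median number of peaks in a domain was 3 at both times. Within domains, neighbouring peaks lay a median of 716.5 bp apart before and 939 bp apart after weaning. Peaks in domains had median widths of 335.5 and 298 bp, against 226.5 and 214 bp for single peaks, so peaks with neighbours were the wider ones at both time points.

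The largest domains together held nearly the same number of peaks at both times, though they were not all the same domains. For single peaks the ratio was 1.94, and for peaks in domains of 10 to 19 peaks it was 2.56 (2.07 to 3.19), from 121 to 310. Domains of 20 or more peaks numbered 13 at both times and held 606 and 618 peaks, a ratio of 1.02 (0.910 to 1.14). Without the cluster they numbered 8 and 7 and held 256 and 230 peaks. A domain of 25 peaks on chromosome 6 before weaning held 16 after weaning. A domain of 20 peaks on chromosome 1 after weaning held 0 before. The 10 largest domains held 22.4% of all peaks before and 13.3% after weaning, or 14.6% and 7.66% without the cluster.

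**Figure D1:**
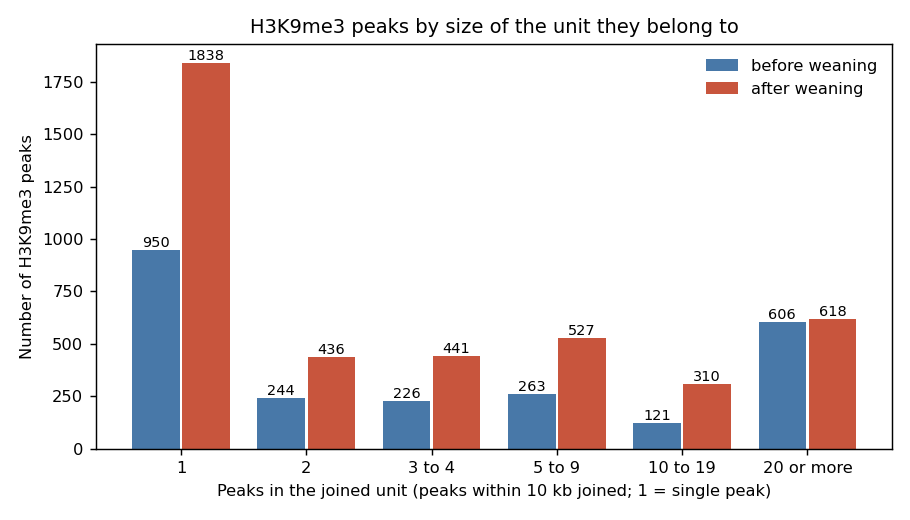
Number of H3K9me3 peaks (vertical axis) by the number of peaks in the unit they belong to (horizontal axis), with 1 bar for each library. Bars are nearly level for units of 20 or more peaks (606 and 618) and higher after weaning in the other 5 classes.

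Which peaks and domains were found at 1 time point was counted next. A peak after weaning was called gained when it shared no base with any earlier peak, and a peak before weaning was called lost when no later peak shared a base with it. Gained H3K9me3 peaks numbered 2918 of 4170, or 70.0% (68.6 to 71.4), where the same rule over all 4 targets called 30.7% of 37481 peaks. Gained domains numbered 210 of 467, or 45.0% (40.5 to 49.5), against 9.16% of 7376 domains over all targets. Lost H3K9me3 peaks numbered 1119 of 2410, or 46.4% (44.5 to 48.4), against 74.9% of 93099 peaks, and lost domains numbered 50 of 250, or 20% (15.5 to 25.4), against 46.4% of 17809 domains. H3K9me3 thus lay above the background for gains and below it for losses. The background counts include H3K9me3 and are mostly H3K27ac peaks, and a list that is longer after weaning, as that of H3K9me3 is, bears on these shares directly. By target, gained peaks made up 55.7% of the H3K9ac list, 47.4% of the RNA pol II list and 23.1% of the H3K27ac list. With the RNA pol II lists exchanged between the time points (738 peaks before and 2056 after weaning), gained peaks made up 80.7% of the RNA pol II list, above the share of H3K9me3. Lost peaks made up 93.4% of the H3K9ac list, 72.1% of the H3K27ac list and 80.7% of the RNA pol II list by the labels, or 47.4% of the RNA pol II list when exchanged, close to the 46.4% of H3K9me3.

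Domains persisted far more often than single peaks. Of the domains before weaning, 66.4% touched a domain after weaning (60.3 to 72.0), and of the domains after weaning 36.0% touched one before weaning (31.8 to 40.4). These were 166 and 168 domains, nearly equal numbers since touching is mutual, so the lower share after weaning restates the larger number of domains. Single peaks touched a peak of the other time point in 23.1% of cases before (20.5 to 25.8) and 8.71% after weaning (7.50 to 10.1). Before weaning the share was higher at each step in size, from 67.2% of units with 2 peaks to 83.8% with 3 to 4 and 97.4% with 5 to 9. All 9 units of 10 to 19 peaks and all 13 of 20 or more before weaning touched a peak after weaning. In the other direction the shares were 36.2% of units with 2 peaks, 61.2% with 3 to 4, 79.5% with 5 to 9, 87.5% with 10 to 19 (21 of 24) and 92.3% with 20 or more (12 of 13). A longer unit has more bases with which to touch a peak, so these shares describe the lists and do not compare domains of equal length.

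Width separated shared from unshared peaks in the same way. Among peaks of 200 bp, 13.9% before and 5.57% after weaning touched a peak of the other time point. For peaks over 200 and up to 300 bp the shares were 40.2% and 19.7%, and for those up to 500 bp they were 68.8% and 45.1%. Above 1000 bp, all 75 peaks before weaning (95.1% to 100%) and 118 of 124 after weaning (95.2%) were shared. Wide H3K9me3 peaks were thus almost entirely those present at both times.

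**Figure D2:**
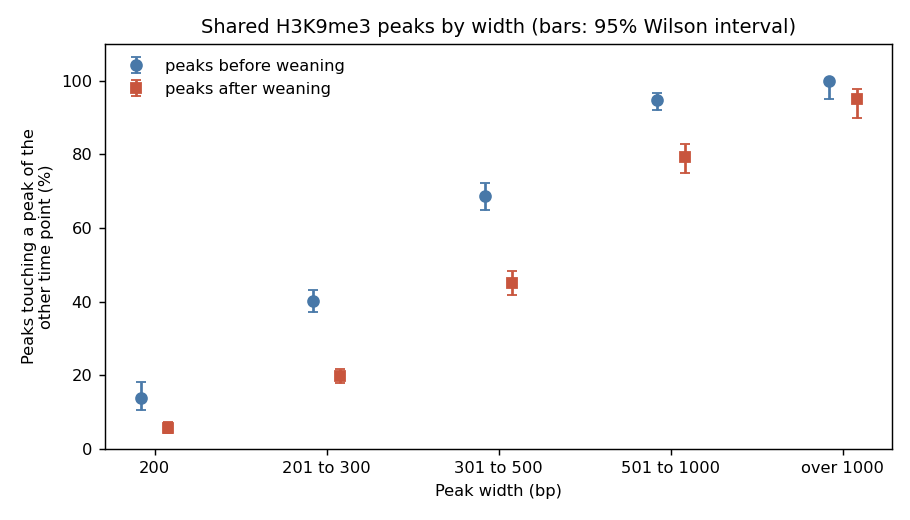
Share of H3K9me3 peaks that touch a peak of the other time point (vertical axis, %) by peak width in bp (horizontal axis), with 95% Wilson intervals. The share climbs from 13.9% at 200 bp to 100% above 1000 bp before weaning, and from 5.57% to 95.2% after weaning.

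Peaks that matched one to one changed little in width. There were 1005 such pairs, with median widths of 345 bp before and 358 bp after weaning. The peak after weaning was the wider in 549 pairs, 54.6% (51.5 to 57.7), and the width was equal in 25. The median log2 ratio of widths, after over before, was 0.035, with quartiles of -0.22 and 0.38. Changes beyond 2-fold were few, 66 pairs wider and 37 narrower after weaning. Splits and fusions were also counted: 79 peaks before weaning touched 2 or more peaks after weaning, and 103 peaks after weaning touched 2 or more before weaning.

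In the full lists, gained peaks lay farther from older H3K9me3 than lost peaks lay from later H3K9me3. Of the lost peaks, 33.9% (31.2 to 36.7) lay within 10 kb of a peak after weaning and 13.0% (11.1 to 15.1) more than 1 Mb from one. Of the gained peaks, 22.6% (21.1 to 24.2) lay within 10 kb of a peak before weaning and 30.4% (28.8 to 32.1) more than 1 Mb from one. Median distances were 64.9 kb for lost and 261.1 kb for gained peaks. The list before weaning is the sparser one, which lengthens the distances measured to it. With the list after weaning shortened to its 2410 widest peaks, 32.3% of lost (29.8 to 34.9) and 28.6% of gained peaks (26.2 to 31.1) lay within 10 kb, where the intervals overlap. Inside the chromosome 17 cluster 57 of 395 peaks (14.4%) were lost and 101 of 435 (23.2%) were gained, against 52.7% and 75.4% elsewhere.

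To place each peak once, both lists were pooled and joined within 10 kb into 2969 joint units. Of these, 500 held peaks of both time points, 680 held peaks before weaning only and 1789 held peaks after weaning only. The 500 shared units contained 69.4% of the peaks before weaning (1673) and 48.1% of those after weaning (2006), a ratio of 1.20. Among them 179 had more peaks after weaning, 237 had equal numbers and 84 had more before weaning. Most of the higher peak number thus came from places with no H3K9me3 peak before weaning, which held 2164 peaks after weaning, against 737 peaks in places with none after weaning. Among the units found after weaning only, 192 had 2 or more peaks (567 peaks in all, up to 20 in 1 unit), and among those found before weaning only, 40 did (97 peaks, up to 5). The 22 joint units with at least 10 peaks before weaning kept between 0.474 and 1.33 times their number, with 10 higher and 11 lower after weaning.

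**Figure D3:**
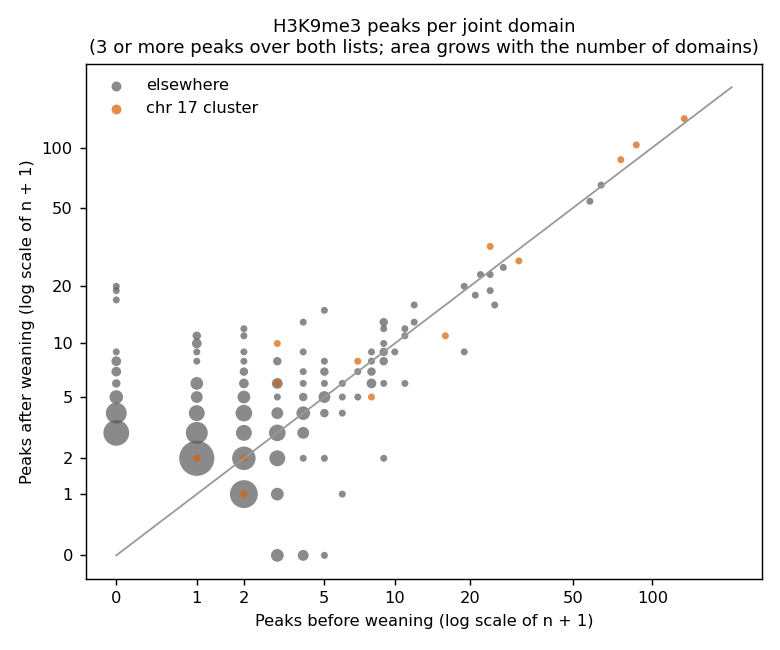
Peaks before weaning (horizontal axis) against peaks after weaning (vertical axis), both on a log scale of n + 1, for the 392 joint units with 3 or more peaks over both lists; the area of a point grows with the number of units at that place and the line marks equal numbers. Units with more peaks after weaning number 244 and those with more before weaning 95, and the units of the chromosome 17 cluster (13, orange) with the most peaks lie close to the line.

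Domains with many peaks before weaning also had many after weaning. In the cluster the largest domain, at positions 51367679 to 51598725, held 132 peaks before and 139 after weaning, and peaks filled 29.2% and 35.4% of it. The domain at 51101198 to 51284107 held 87 and 103 peaks, and after weaning this stretch was broken into domains of 60 and 43 peaks. The domain at 50802939 to 50946178 held 76 and 87 peaks, that at 50617987 to 50667008 held 24 and 29, and that at 51615453 to 51667344 held 31 and 27. H3K9ac and H3K27ac peaks were also more numerous in the cluster after weaning, from 29 to 82 and from 9 to 64. Their whole lists were shorter after weaning, from 14384 to 2127 and from 74249 to 30446 peaks. RNA pol II peaks there went from 127 to 192 by the labels, and from 192 to 127 with its lists exchanged. The part of the input, which was common to the calling of all lists, was not tested.

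Outside the cluster 5 domains led before weaning. On chromosome 9, positions 7752775 to 7818023 held 58 peaks before and 53 after weaning, and positions 27218497 to 27245150 held 27 and 25. A second dense place on chromosome 17, positions 25028801 to 25103346, held 55 and 50 peaks. Chromosome 6, positions 6253533 to 6313592, went from 25 to 16 peaks, and chromosome 13, positions 5335870 to 5380566, had 24 and 23. Of these 5, the chromosome 6 domain showed the largest difference, and the other 4 differed by 5 peaks or fewer. After weaning 4 of these places were again among the 5 leading ones, and chromosome 19, positions 4008961 to 4042521, joined them with 22 peaks before and 23 after weaning. The domain on chromosome 17 then reached further, to 25126583, with 64 peaks before and 65 after weaning over the longer span. It contained the widest peak of the list after weaning, 8908 bp at 25036556 to 25045463, which took in 7 peaks of the list before weaning.

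A block on chromosome 8 had fewer but much wider peaks after weaning. At positions 83233305 to 83258752, a span of 25.5 kb, there were 11 peaks before and 6 after weaning. The length covered went from 4.10 kb to 23.9 kb, or from 16.1% to 93.8% of the span, the largest rise in covered length among the 316 joint units with 3 or more peaks that were present in both lists. The widest peak there was 712 bp before and 6113 bp after weaning, and 4 of the 5 widest peaks of the whole list after weaning lay in this block. No peak of H3K9ac, H3K27ac or RNA pol II lay in it at either time. Over the 316 units, the median ratio of covered length was 1.34 (quartiles 0.870 and 2.46), with 210 covered more after weaning.

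The largest domains without any peak at the other time were longer and held more peaks after weaning. Peaks filled between 6.47% and 30.2% of the 5 leading ones after weaning and between 8.50% and 46.7% of those before weaning. Chromosome 1, positions 145300396 to 145381787 (81.4 kb), held 20 peaks after weaning and 0 before. Chromosome 18, positions 43804185 to 43832499 (28.3 kb), held 19, and chromosome 24, positions 56917725 to 56959109 (41.4 kb), held 17. Chromosome 8, positions 36101983 to 36142635, held 10 and chromosome 7, positions 54152746 to 54192033, held 9. None of these 5 had a peak of an active target at either time point. In the reverse direction the leading domain held 5 peaks, at chromosome 14, positions 15080427 to 15094256, with 1 RNA pol II peak before weaning by the labels. The other 4 held 4 peaks each and lay at X 58300579 to 58309524, X 36287329 to 36296258, chromosome 16 7052294 to 7059212 and chromosome 6 5410546 to 5412669. The first and the last of these 4 held 1 H3K9ac peak each after weaning, and the other 2 had no peak of an active target at either time.

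Over all H3K9me3 peaks, 18.3% touched a peak of H3K9ac, H3K27ac or RNA pol II of the same time point before weaning and 15.0% after weaning. With the list after weaning shortened to its 2410 widest peaks the order turned, at 18.3% and 23.9%. With a reciprocal overlap of 50% the shares were 11.6% and 10.2%. Peaks found at both times and peaks found at 1 time differed in how often they touched such a peak. Before weaning, 30.1% of the shared H3K9me3 peaks and 4.83% of the lost ones (54 of 1119) touched such a peak. After weaning these shares were 46.3% of the shared and 1.61% of the gained peaks (47 of 2918). RNA pol II was the most frequent partner, touched by 29.4% of shared peaks before (27.01 to 32.0) and 44.3% after weaning (41.6 to 47.1), and by 0.994% of gained peaks (0.693 to 1.42). The order of the time points depended on the labels of the RNA pol II lists, which the study's text gives the other way round. With these lists exchanged, 43.2% of shared peaks before (40.5 to 45.9) and 30.4% after weaning (27.9 to 33.0) touched RNA pol II, while 3.40% of lost and 0.446% of gained peaks did. Over all peaks the shares with any active target were then 25.9% and 11.4%. Shared peaks met RNA pol II more often than lost or gained peaks under both assignments. H3K9ac was touched by 8.60% of shared peaks before and 21.6% after weaning, and H3K27ac by 2.87% and 17.3%. The H3K9ac and H3K27ac lists were shorter after weaning than before it, and so was the RNA pol II list by the labels. Without the cluster the shares with any active target were 28.8% and 45.2% for shared peaks, 4.71% for lost and 1.56% for gained peaks. H3K9me3 is known as a mark of silent chromatin, and RNA pol II as the enzyme that transcribes genes. In these lists their overlap lay with the shared peaks, which were also the wider ones, with medians of 365 and 372 bp against 229 bp for lost and 223 bp for gained peaks. The part of width and of the common input in this overlap was not tested.

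Over the chromosomes, the higher peak number was widespread and uneven. Of 30 chromosomes (1 to 29 and X) 29 had more peaks after weaning, with a median ratio of 2.09, and on 24 the 95% interval lay above 1. When the list after weaning was shortened to its 2410 widest peaks, which makes the totals equal, 18 of 30 had more. The ratio was highest on chromosome 11, which went from 29 to 105 peaks (3.62, 2.38 to 5.67), chromosome 24, from 23 to 80 (3.48, 2.17 to 5.80), and chromosome 1, from 47 to 147 (3.13, 2.24 to 4.44). It was lowest on X, from 90 to 71 (0.789, 0.570 to 1.09), chromosome 16, from 70 to 76 (1.09, 0.774 to 1.52), and chromosome 6, from 167 to 192 (1.15, 0.930 to 1.42). Intervals of the lowest 3 include 1, but these chromosomes were picked by the same ratios, so their intervals are no support. Counted as units, which takes a domain as 1, the ratio ranged from 0.761 on X to 4 on chromosome 11.

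Density per Mb kept much of its order between the time points. The genome average was 0.907 peaks per Mb before and 1.57 after weaning, or 0.759 and 1.40 without the cluster. Chromosome 17 led with 6.84 and 7.93 peaks per Mb. Without the cluster it had 1.63 and 2.20, its peaks went from 119 to 161 (ratio 1.35, 1.06 to 1.73), and the highest densities were then on chromosome 19 before weaning (1.81) and chromosome 18 after weaning (4.21). Chromosome 18 went from 110 to 278 peaks (ratio 2.53, 2.02 to 3.18), the highest absolute gain of those named here. The lowest density was on chromosome 20 before (0.236, 17 peaks, none of them in a domain) and on X after weaning (0.477). Across the 30 chromosomes, Spearman's rho was 0.79 between the densities before and after and -0.67 between the density before weaning and the ratio. Both describe chromosomes that share 2 libraries. Since the density before weaning is also the denominator of the ratio, a negative value is built into the second, and nothing was read from it.

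**Figure D4:**
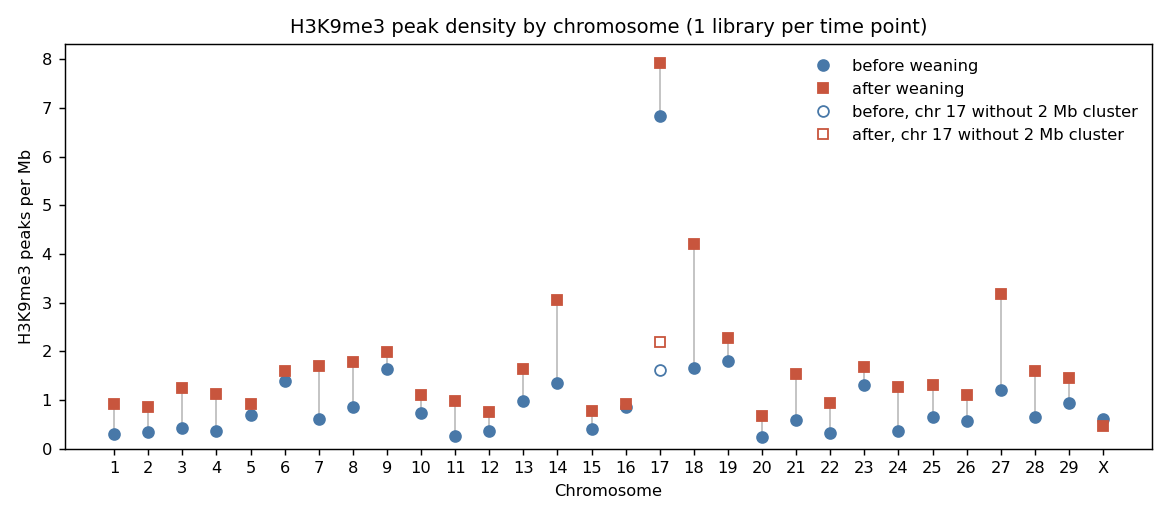
H3K9me3 peaks per Mb (vertical axis) on each chromosome (horizontal axis), before weaning (circles) and after weaning (squares); open symbols give chromosome 17 without its 2 Mb cluster. The 2 symbols of chromosome 17 stand at 6.84 and 7.93 and drop to 1.63 and 2.20 without the cluster, and X is the chromosome with fewer peaks after weaning.

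In bins of 1 Mb, H3K9me3 peaks were found in 741 of 2675 bins before (27.7%) and 1257 after weaning (47.0%), and 522 bins had peaks at both times. Peak number was higher after weaning in 973 bins, lower in 309 and equal in 194 of the bins with a peak. In 575 of the 973 the rise was 1 peak, and the 5 bins with the largest rises gave 10.5% of all rises. Bins with 5 or more peaks numbered 81 before and 156 after weaning.

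The first Mb of chromosome 14 had the largest rise, from 37 to 122 peaks (ratio 3.30). RNA pol II peaks in this bin went from 2 to 22 by the labels, or from 22 to 2 with its lists exchanged, and H3K9ac and H3K27ac had 1 and 0 peaks there before and 3 and 2 after weaning. Chromosome 27, positions 28000001 to 29000000, went from 15 to 71 peaks, chromosome 1, positions 145000001 to 146000000, from 2 to 35, chromosome 18, positions 59000001 to 60000000, from 10 to 41, and chromosome 8, positions 74000001 to 75000000, from 5 to 34. In the bin on chromosome 27 the largest domain grew from 2 to 13 peaks while units went from 13 to 16, so the added peaks lay close to each other. In the bin on chromosome 18, units went from 9 to 23 and the largest domain from 2 to 6 peaks.

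Falls were smaller in the bins named here. All these bins were picked by the size of the same differences, and the ratio over the whole lists was 1.73. Intervals of their ratios would therefore be no support and are not given. Chromosome 6, positions 6000001 to 7000000, went from 72 to 53 peaks, and the bin before it, positions 5000001 to 6000000, from 59 to 50. Chromosome 16, positions 7000001 to 8000000, went from 31 to 17, and X, positions 36000001 to 37000000, from 15 to 6. Chromosome 28, positions 38000001 to 39000000, had 9 peaks before and 2 after weaning, but the median width there was 383 bp and 1463 bp. That bin held 1 domain at both times, and its fall in number accompanied wider peaks, with the later median resting on 2 peaks. The length covered by peaks in it also went down, from 3561 to 2926 bp.

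Along the autosomes, both ends held more peaks after weaning and a larger share of them. The last 3 Mb of the 29 autosomes held 54 of 2320 autosomal peaks before (2.33%, 1.79 to 3.02) and 178 of 4092 after weaning (4.35%, 3.77 to 5.02). The first 3 Mb, on the side of the centromere, held 131 (5.65%, 4.78 to 6.66) and 384 (9.38%, 8.53 to 10.3). At each end 3 Mb made up 3.47% of the autosomal length. The number near the first end was higher after weaning on 25 of 29 autosomes and lower on 2, and near the last end it was higher on 23 and lower on 1. Counted over all autosomes, the ratio was 2.93 near the first end (2.40 to 3.60) and 3.30 near the last end (2.42 to 4.56), against a ratio of 1.76 for all autosomal peaks.

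The share at the first end depended on 1 chromosome and on counting peaks or units. Chromosome 14 alone gave 45 and 147 of the peaks near first ends. Without the cluster the shares were 6.81% and 10.5%, and without the first Mb of chromosome 14 as well they were 4.98% (4.09 to 6.06) and 7.41% (6.59 to 8.32). Counted as units, without the cluster, 8.59% lay near first ends before (7.09 to 10.4) and 8.67% after weaning (7.58 to 9.91), so the shares of units were level there while the peaks per unit were higher. Near last ends the units made up 4.30% (3.26 to 5.65) and 5.86% (4.96 to 6.91), where the intervals overlap. Chromosome 18 contributed most to the last ends, with 12 peaks before and 39 after weaning.

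Each autosome was also divided into 10 sections of equal length, numbered from the side of the centromere. Section 1 was the richest in H3K9me3 peaks outside the cluster at both times. It held 26.8% of autosomal peaks before (24.9 to 28.8) and 21.4% after weaning (20.1 to 22.8), both without the cluster. The share of section 1 was thus lower after weaning while that of the first 3 Mb within it was higher. A few places held many of the 516 and 784 peaks of section 1. The chromosome 6 bins from 5000001 to 7000000 held 59 and 72 before, and 50 and 53 after weaning. The first 5 Mb of chromosome 19 held 58 and 63, and the domain at chromosome 9, positions 7752775 to 7818023, held 58 and 53. Section 10, the far end, held 7.79% (6.68 to 9.08) and 13.5% (12.4 to 14.6), and section 5 held the least, 5.195% and 6.02%. Section 7 held 22.9% and 19.5% with the cluster and 7.07% and 9.93% without it. As units without the cluster, section 1 held 19.7% (17.5 to 22.1) and 16.8% (15.3 to 18.4), and section 10 held 11.1% (9.39 to 13.1) and 14.8% (13.3 to 16.3). The larger share at the far end was therefore present in units too.

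**Figure D5:**
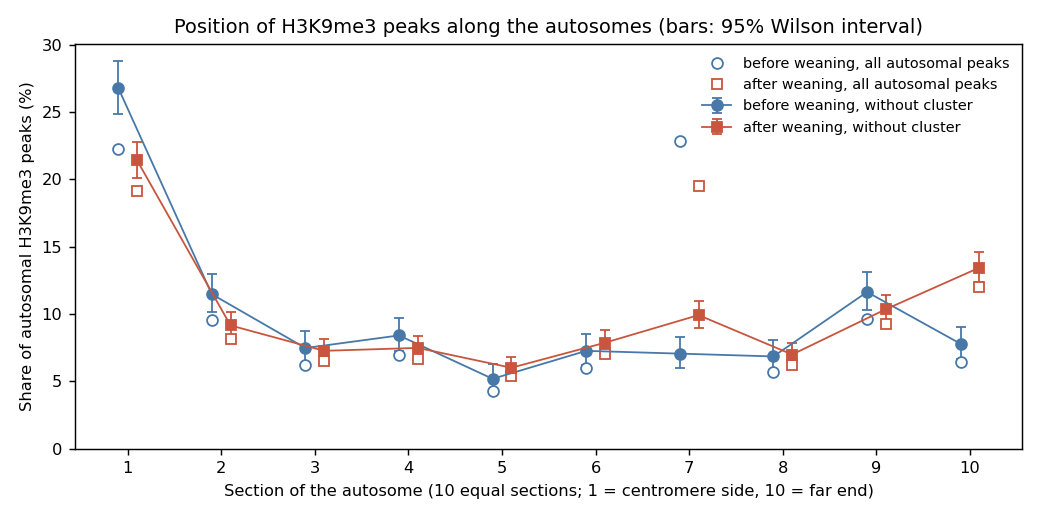
Share of autosomal H3K9me3 peaks (vertical axis, %) in each of 10 equal sections of chromosome length (horizontal axis, 1 on the side of the centromere), before (circles) and after weaning (squares); filled symbols with 95% Wilson intervals leave out the chromosome 17 cluster and open symbols include it. Without the cluster section 1 is highest at both times (26.8% and 21.4%), section 10 is higher after weaning (13.5% against 7.79%), and section 7 drops from 22.9% and 19.5% to 7.07% and 9.93% when the cluster is left out.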

How the data were processed

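Peak lists of H3K9me3 ChIP-seq from rumen epithelial tissue were analysed, 1 library per time point, grouped by the labels. The authors dropped reads that failed the quality filter, aligned the rest with BWA to UMD3.1.1, kept unique alignments with fewer than 2 mismatches and called peaks with MACS2 at default settings against 1 input, as far as stated for each library alone. The deposited files hold chromosome, start and end, with no score or depth, so no precision from depth could be given. Positions were read as 1-based with both ends included, since the lowest end minus start was 199. Chromosome extent was the highest peak end over the 8 lists.

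Joining, overlaps (at least 1 bp) and positions were computed in Python 3.11.15 with pandas 2.3.3 and NumPy 2.4.6. Shares have 95% Wilson intervals, and ratios of peak numbers have exact conditional intervals from SciPy 1.17.1. Both describe counting error alone, while adjacent peaks depend on each other. Scripts were tested on simulated data. With 1 library per group no test was made. Named places were the 5 domains with most peaks inside and outside the cluster, the 5 largest domains unmatched at the other time, the 5 widest peaks, the 5 bins with the largest rise and fall, and the 3 chromosomes with the highest and lowest ratio. Other places and chromosomes named were chosen after their values were seen. The places compared and the rules were chosen with earlier results of these data known. Alternatives are given in the closing section.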

Additional observations from a re-analysis of the deposited data

Results flagged for a closer look

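The H3K9me3 list after weaning held 7 peaks on the mitochondrial sequence, outside the comparisons of chromosomes, which is 0.168% of the list (95% Wilson interval 0.0813 to 0.346). The list before weaning held 0 of 2410 there, which allows a share of up to 0.125% (3 counts of the total), and the other lists were at 0 as well. The 7 peaks covered 2717 bp between positions 5965 and 15553, were 200 to 653 bp wide, with 2 at the lowest width, and joined into 1 domain. Their source was not tested.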

How the results depend on the processing

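Of 115 recomputed values, 53 stayed within their interval or within 1.5 times and 62 moved. A move means leaving the 95% interval of the value as reported, or a factor of 1.5 for ratios and counts. Values are given before and then after weaning, and for nearness within 10 kb for lost and then gained peaks. Without the chromosome 17 cluster, the median width was 261 and 240 bp, the share in domains 53.0% and 50.9%, nearness 30.6% and 19.9%, the share near first ends 6.81% and 10.5% and the share touching an active target 16.1% and 12.3%. With peaks wider than 200 bp, width was 299 and 285 bp, domains held 65.3% and 62.1%, 25.7% of gained peaks were near, and 20.7% and 19.1% touched an active target. With peaks wider than the median, width was 382.5 and 359 bp, 141 and 241 domains held 70.2% and 65.8% of peaks, 76.6% and 43.6% of domains touched a domain of the other time, nearness was 44% and 26.95%, last ends held 1.46% and 2.96%, and 30.3% and 27.7% touched an active target. With equal numbers of the widest peaks the ratio of peak numbers was 1 by construction, 54.8% and 49.3% of domains touched one of the other time, and 18 chromosomes had more peaks after weaning. The list after weaning then had a median width of 332 bp, 63.1% of peaks in 280 domains, 28.6% of gained peaks near, 10.4% and 3.34% of peaks near first and last ends and 23.9% touching an active target. This setting shortens the list after weaning alone to its widest peaks, which raises its median width by construction. The share in domains (60.6% before, 63.1% after) and the share touching an active target (18.3%, 23.9%) were also higher after weaning. How far the shortening accounts for these shares was not tested. Under the settings with 1 limit for both lists, the median width and both shares stayed lower after weaning. Without regions holding all 4 targets, width was 263 and 242 bp and domains held 56.8% and 53.7%. Joining within 5 kb put 56.3% and 49.5% of peaks in domains, and within 50 kb 69.2% and 65.6%. With a reciprocal overlap of 50%, nearness was 50.3% and 30.5%, and 11.6% and 10.2% touched an active target. Ends of 5 Mb held 8.75% and 11.5% (first) and 3.23% and 5.79% (last). Without the first Mb of chromosome 14, a setting chosen after seeing the data, first ends held 4.12% and 6.599%. With the RNA pol II lists exchanged between the time points, also chosen after seeing the data, 25.9% and 11.4% touched an active target. Domains were more numerous after weaning, and the share of peaks near both ends was larger, in 8 of 8 settings each.

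No paired analysis was possible because each group holds 1 library. Leaving out a library was not run, since it would leave a time point empty. Lane differed between the libraries, and depth and enrichment are not in the lists. Their part in the differences was not tested. The lists hold no peak height, so width served in place of a score.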
